A study of Mus musculus with 8 samples.

Results

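Expression of 10 genes of the integrated stress response was followed in the RNA-seq data of TX1072 embryonic stem cells (ESCs) before and after addition of doxycycline (DOX). The genes were Atf4, Atf5, Ddit3, Trib3, Chac1, Asns, Psat1, Phgdh, Shmt2 and Mthfd2, and they were selected by symbol. All 10 were among the 24542 gene symbols of the tables and among the 13387 genes that passed the expression filter.

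TX1072 is a female mouse line from a cross of Mus musculus castaneus (Cast) with C57BL/6 (B6), in which DOX drives Xist from the B6 X chromosome. Hdac3+/+ cells were the parental line in 2 replicates, and the 2 Hdac3-/- samples per time came from 2 independent clones that the study derived from it by CRISPR/Cas9. All cells were grown on gelatin in serum with LIF and 2i, and were collected at 0 hr or after 24 hr of DOX at 1 µg/ml, giving 4 groups of 2 samples. No sample was cultured for 24 hr without DOX, so DOX itself, Xist expression and the extra day in culture cannot be told apart, and no parental clone was taken through the CRISPR procedure, so loss of Hdac3 and clonal derivation cannot be told apart either. The study describes its replicates as biological. The labels do not tie a replicate number to a clone and do not say how the Hdac3+/+ duplicates were kept apart, and the p-values measure the spread between these samples. In bulk RNA, fewer cells that express a gene and less RNA of it per cell cannot be told apart.

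The integrated stress response starts when kinases that sense amino acid shortage, unfolded proteins, haem shortage or double-stranded RNA phosphorylate the translation factor eIF2, which lowers general translation and favours translation of the Atf4 mRNA. ATF4 is a bZIP transcription factor that raises genes of amino acid uptake and synthesis, tRNA charging and one-carbon metabolism. DOX, used here to switch on Xist, also inhibits mitochondrial ribosomes, and mitochondrial stress is one of the inputs that reach ATF4. Since ATF4 is controlled largely at translation, the mRNA of its target genes is the readout that these data hold.

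ATF4 binds composite sites of the form TGATGNAAN together with C/EBP family partners. This sequence was searched on both strands from 250 bases before to 50 bases after the RefSeq starts of all genes, and 3.95% of 32851 windows held it. Among the 10 genes, the windows of Asns, Chac1 and Trib3 had 1 match each. The 250 bases before the start of Asns and Chac1, which have the match there, and of Mthfd2, which has no match in the window, are given 5′ to 3′ on the strand of the gene (RefSeq, GRCm38.p6), because these 3 genes were higher in Hdac3-/- cells at both times. Capitals mark the match.
Asns, chr6:7693210-7693459, - strand: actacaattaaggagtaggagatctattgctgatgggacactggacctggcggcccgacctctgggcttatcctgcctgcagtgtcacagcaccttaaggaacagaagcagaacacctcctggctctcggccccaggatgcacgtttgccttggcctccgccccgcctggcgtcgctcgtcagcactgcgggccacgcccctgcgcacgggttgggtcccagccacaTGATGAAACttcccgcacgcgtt
Chac1, chr2:119350992-119351241, + strand: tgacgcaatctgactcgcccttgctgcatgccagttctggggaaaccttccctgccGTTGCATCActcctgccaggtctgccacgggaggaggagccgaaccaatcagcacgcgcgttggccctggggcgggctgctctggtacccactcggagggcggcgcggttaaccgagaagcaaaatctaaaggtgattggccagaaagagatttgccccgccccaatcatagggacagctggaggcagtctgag
Mthfd2, chr6:83317605-83317854, - strand: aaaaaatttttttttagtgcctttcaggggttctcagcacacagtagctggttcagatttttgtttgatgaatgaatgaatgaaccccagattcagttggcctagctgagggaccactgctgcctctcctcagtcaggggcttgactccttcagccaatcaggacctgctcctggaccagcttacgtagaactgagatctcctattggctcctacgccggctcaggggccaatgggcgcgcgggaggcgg
The match in Trib3, TTTACATCA, begins 14 bases into the transcribed part. A match is a description of the letters, and no binding was measured.

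The labels and the cell type were checked first. Hdac3 fell from 40.4 ± 3.18 CPM (reads scaled to the TMM-normalized library size, SD, n = 2) in Hdac3+/+ to 6.64 ± 1.14 CPM in Hdac3-/- at 0 hr, and Xist rose from 8.74 ± 2.22 to 1707 ± 20.1 CPM in Hdac3+/+ and from 17.2 ± 0.282 to 1811 ± 345 CPM in Hdac3-/- (SD, n = 2 each). The libraries held between 6940375 and 17125156 counted reads, the lowest in Hdac3+/+ at 24 hr, replicate 2. All 7 ESC markers were above 1 CPM in each group, with a summed level of 4227 to 4439 CPM in Hdac3+/+ and 4897 to 5085 CPM in Hdac3-/-. Sums for 5 endoderm markers were 2.64 to 6.32 CPM and for 6 fibroblast markers 28.9 to 59.7 CPM, with Lum, Dcn or Col3a1 at 0 reads in some groups. Some markers of these lists were above 1 CPM as well, 1 to 3 of the endoderm and 2 to 3 of the fibroblast markers per group. So were 4 of 5 primed and formative, 3 of 4 trophoblast and 2 to 3 of 4 mesoderm markers. Primed and formative markers summed to 192 to 209 CPM in Hdac3+/+ and 109 to 128 CPM in Hdac3-/-, trophoblast markers to 50.4 to 95.2 and 41.3 to 52.8 CPM, and mesoderm markers to 36.9 to 76.9 and 45.5 to 80.8 CPM. The part of these differences in the results was not tested.

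Per transcript length, the 10 genes spanned a wide range in Hdac3+/+ cells at 0 hr. Asns, which makes asparagine from aspartate, was highest with 810.5 ± 51 TPM (a level scaled by transcript length and library, SD, n = 2), followed by Atf4 with 386 ± 40.7, the mitochondrial serine hydroxymethyltransferase Shmt2 with 356 ± 16.3 and the serine synthesis enzyme Psat1 with 311 ± 25.9 TPM. The levels of Atf4 and Shmt2 were within their SD of each other. Phgdh, the first enzyme of serine synthesis, had 104 ± 1.11 TPM, the mitochondrial folate enzyme Mthfd2 85.3 ± 3.28 and the transcription factor Atf5 72.9 ± 2.41 TPM. Chac1, which degrades glutathione, had 45.4 ± 7.76 TPM, and the pseudokinase Trib3, a feedback inhibitor, 39 ± 11.3 TPM, which did not differ beyond their SD. Ddit3, which encodes the stress factor CHOP, was lowest with 14.5 ± 4.73 TPM. For Phgdh, 9 processed pseudogenes share a stretch of at least 200 bases at 95% identity or more with its transcript, so its count is less certain.

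The first comparison asked whether the genes changed within 24 hr of DOX. None of the 10 passed the test in Hdac3+/+, in Hdac3-/- or in the mean of both genotypes (edgeR quasi-likelihood test, adjusted p above the threshold of 0.05). For the mean of both genotypes 0.448% of all tested genes were called, 57 of the 60 of them X-linked, against 0.209% in Hdac3+/+ and 0.0224% in Hdac3-/-. At an unadjusted p under 0.05, 2 of the 10 were called in Hdac3+/+, 0 in Hdac3-/- and 1 in the mean of both, beside 7.48%, 2.01% and 7.02% of all tested genes. DESeq2 and limma with voom also called none. The median log2 fold change of the 10 genes in the mean of both genotypes was 0.09, beside 0.00 for all tested genes.

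Atf4, the transcription factor at the centre of the response, was measured in Hdac3+/+ at 257 and 234 CPM at 0 hr and at 293 and 281 CPM at 24 hr. Both 24 hr samples lay above both 0 hr samples, as did 20.7% of all tested genes. The log2 fold change was 0.23 with an SE of 0.08 and an adjusted p of 0.56. In Hdac3-/-, Atf4 was at 337 and 306 CPM before and at 337 and 323 CPM after DOX, and the groups overlapped.

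Asns was measured at 609 and 589 CPM before and at 692 and 713 CPM after DOX in Hdac3+/+. In Hdac3-/- it was at 889 and 864 CPM before and at 1019 and 903 CPM after. The 24 hr samples lay above the 0 hr samples in both genotypes, and in the mean of both the log2 fold change was 0.18 with an SE of 0.05, an unadjusted p of 0.0083 and an adjusted p of 0.34. In Hdac3-/-, 10.7% of all tested genes had both 24 hr samples above both 0 hr samples, and Asns and Psat1 were the 2 of the 10 that did.

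Replicate 1 of Hdac3-/- showed the same allele shifts at Shmt2 and Mthfd2 at both times, and same-numbered Hdac3-/- samples were treated as samples of the same clone in an added fit. When this block was applied in Hdac3-/- only, Asns was called in the mean of both genotypes (log2 fold change 0.18, adjusted p = 0.027) and in Hdac3+/+ (0.23, adjusted p = 0.0497), beside 3.03% and 3.05% of all tested genes. When replicate numbers were blocked within each genotype, Asns (0.18, adjusted p = 0.00018), Mthfd2 (0.14, adjusted p = 0.026) and Atf4 (0.13, adjusted p = 0.012) were called higher in the mean of both, beside 9.43% of all tested genes. That block also pairs the Hdac3+/+ samples by replicate number, for which the labels give no basis. With 1 block over all groups none of the 10 was called, beside 1.56% of all tested genes in the mean of both.

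Ddit3, Chac1 and Trib3, which typically rise in a strong response, were not called after DOX. Ddit3 was at 8.05 and 5.33 CPM before and 5.9 and 5.43 CPM after DOX in Hdac3+/+. Chac1 was at 21.9 and 18.2 CPM before and 18.6 and 16 CPM after. Trib3 was at 26.3 and 18.3 CPM before and 25.7 and 25 CPM after, and in all 3 genes the groups overlapped in both genotypes. In Hdac3-/- the corresponding values of Trib3 were 27.4 and 25.7 CPM before and 28 and 24.8 CPM after.

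The other transcription factor, Atf5, which is itself a target of the pathway and acts in the mitochondrial stress response, was at 39.1 and 39.4 CPM before and 51.7 and 42 CPM after DOX in Hdac3+/+. In Hdac3-/- it was at 44.8 and 31.5 CPM before and 50.8 and 31.2 CPM after, so that the spread between the replicates exceeded the difference between the times. In Hdac3+/+ both 24 hr samples were above both 0 hr samples, and the log2 fold change in the mean of both genotypes was 0.18 with an SE of 0.17.

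Enzymes of serine and one-carbon metabolism gave small differences. Psat1 was at 369 and 346 CPM before and 357 and 356 CPM after DOX in Hdac3+/+. Phgdh was at 68.6 and 71.4 CPM before and 73.6 and 70.1 CPM after. These groups overlapped. Shmt2 was at 301 and 298 CPM before and 342 and 317 CPM after, and Mthfd2 at 80.3 and 80.4 CPM before and 83.4 and 94.7 CPM after. Both 24 hr samples were above both 0 hr samples for Shmt2 and Mthfd2, and neither gene was called. In all, 5 of the 10 genes (Atf4, Atf5, Asns, Shmt2 and Mthfd2) were separated in this way in Hdac3+/+, beside 20.7% of all tested genes. None of the 10 was separated in the other direction, beside 21.8% of all tested genes.

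**Figure D1:**
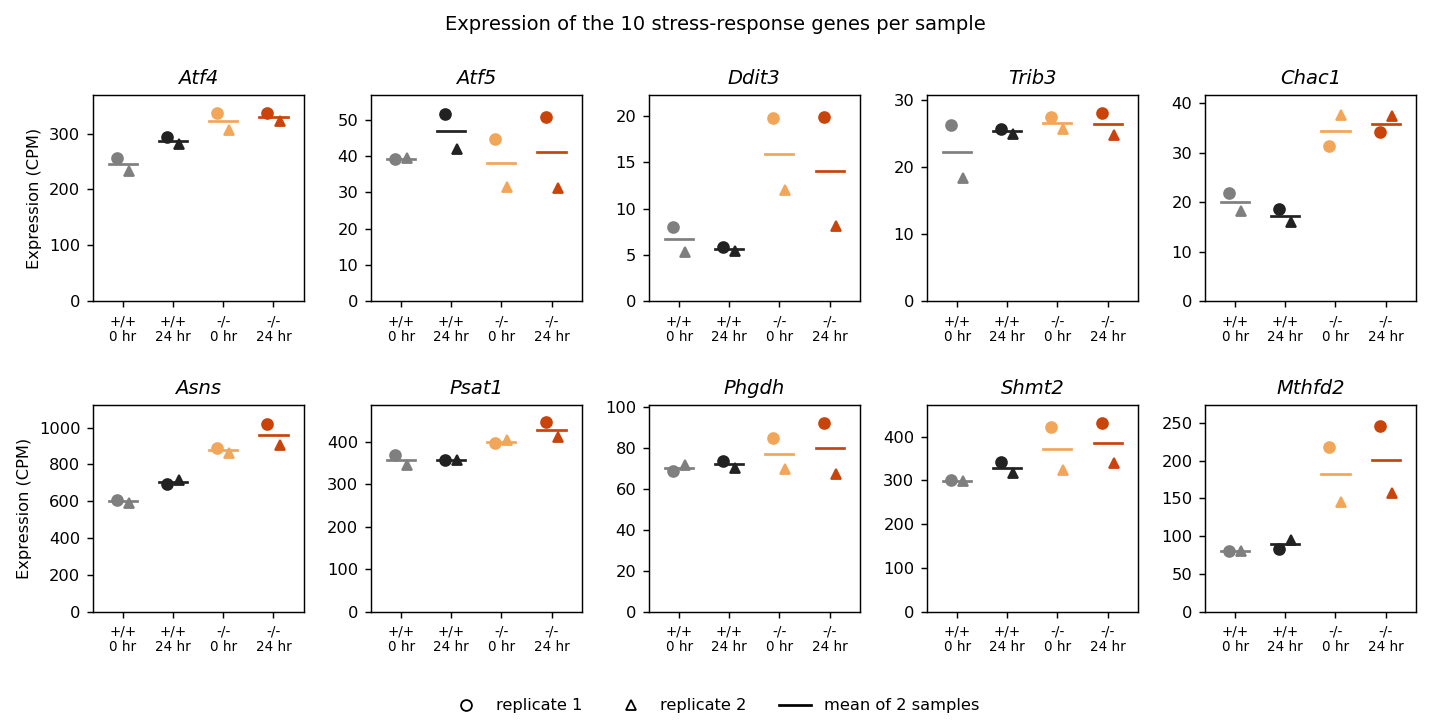
Expression of each of the 10 genes in CPM (linear axis from 0) by genotype and time, with circles for replicate 1, triangles for replicate 2 and a line at the mean of 2 samples. The means of Asns are 599 and 703 CPM in Hdac3+/+ at 0 and 24 hr and 876 and 961 CPM in Hdac3-/-. For Atf5, Ddit3, Phgdh, Shmt2 and Mthfd2 the ratio between replicates is larger in Hdac3-/- than in Hdac3+/+ at both times.

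The intervals bounded the size of any change with DOX. In the mean of both genotypes the 95% intervals of all 10 genes lay below a doubling and above a halving, and the highest upper bound was 1.48-fold, for Atf5. Within a genotype all 10 upper bounds also lay below a doubling, the highest being 1.75-fold for Atf5 in Hdac3+/+ and 1.64-fold for Ddit3 in Hdac3-/-. Only Ddit3, with 38 to 332 reads per sample, had intervals that reached below a halving, to 0.413-fold in Hdac3+/+ and 0.475-fold in Hdac3-/-.

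The change with DOX was not shown to differ between the genotypes. No gene was called for the interaction of DOX and genotype, which is 0% of those tested, by edgeR (254 of 13387 had an unadjusted p under 0.05) and by limma with voom, and 1 was called by DESeq2, which was none of the 10. With replicate numbers blocked within each genotype 153 genes (1.14%) were called for the interaction, and none of them was among the 10. The largest interaction among the 10 was that of Chac1, with a log2 value of 0.26 (95% interval -0.23 to 0.76).

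The second comparison set Hdac3-/- against Hdac3+/+ cells at the same time. At 0 hr 4 of the 10 genes were higher in Hdac3-/- and none was lower: Mthfd2, Chac1, Asns and Atf4. Among all tested genes 7.2% were called higher and 8.36% lower. At 24 hr, again 4 of the 10 were higher and none lower (Mthfd2, Chac1, Asns and Psat1), with 6.57% of all genes called higher and 7.31% lower. The median log2 fold change of the 10 genes was 0.35 at 0 hr and 0.25 at 24 hr, beside -0.01 and 0.00 for all tested genes. With the samples blocked by replicate number within each genotype, which leaves the difference between clones out of the error, 8 of the 10 were called at each time, all of them higher except Atf5 at 24 hr, while 47.8% of all tested genes were called at 0 hr and 42.6% at 24 hr.

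Chac1 was at 31.4 and 37.5 CPM in Hdac3-/- at 0 hr and at 34.2 and 37.3 CPM at 24 hr, above all 4 Hdac3+/+ samples. Its log2 fold change against Hdac3+/+ was 0.78 at 0 hr (SE 0.15, adjusted p = 0.012) and 1.04 at 24 hr (SE 0.16, adjusted p = 0.0045). Asns had log2 fold changes of 0.55 at 0 hr (SE 0.08, adjusted p = 0.0027) and 0.45 at 24 hr (SE 0.08, adjusted p = 0.0069). Chac1 and Asns were also higher at both times with either Hdac3-/- replicate as the only knockout sample. Those fits take their spread from the Hdac3+/+ duplicates alone. Over all alternatives the log2 fold change of Chac1 was 0.65 to 0.93 at 0 hr and 0.94 to 1.17 at 24 hr. That of Asns was 0.48 to 0.58 and 0.36 to 0.54.

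Atf4 was higher by a log2 fold change of 0.39 at 0 hr (SE 0.08, adjusted p = 0.016). At 24 hr it differed by 0.20 (SE 0.08, adjusted p = 0.15), and all 4 Hdac3-/- samples were above all 4 Hdac3+/+ samples. Psat1 was at 397 and 405 CPM in Hdac3-/- at 0 hr and at 446 and 410.4 CPM at 24 hr, with log2 fold changes of 0.17 (adjusted p = 0.17) and 0.26 (adjusted p = 0.048). The call for Psat1 at 24 hr was lost in 13 of 22 alternatives.

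Mthfd2 was at 218 and 145 CPM in Hdac3-/- at 0 hr and at 245 and 157 CPM at 24 hr, with replicate 1 above replicate 2, and replicate 2 above all 4 Hdac3+/+ samples. The log2 fold change was 1.18 at 0 hr (SE 0.23, adjusted p = 0.011) and 1.18 at 24 hr (SE 0.23, adjusted p = 0.014). Ddit3 was at 19.8 and 12 CPM in Hdac3-/- at 0 hr and 19.9 and 8.15 CPM at 24 hr, and its log2 fold changes of 1.25 and 1.31 had SEs of 0.41 and 0.44 and did not pass (adjusted p = 0.073 and 0.083).

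Ddit3 and Mthfd2 lay, with Atf4, Chac1, Asns and Psat1, in the set of 6 genes whose 4 Hdac3-/- samples all exceeded the 4 Hdac3+/+ samples, which held for 16.5% of all tested genes. Shmt2 was at 421 and 323 CPM in Hdac3-/- at 0 hr and 431 and 341 CPM at 24 hr, Phgdh at 84.8 and 69.6 CPM and at 92.3 and 67.4 CPM, and neither was called. Atf5 and Trib3 were not called either, with log2 fold changes at 0 hr of -0.04 and 0.25.

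**Figure D2:**
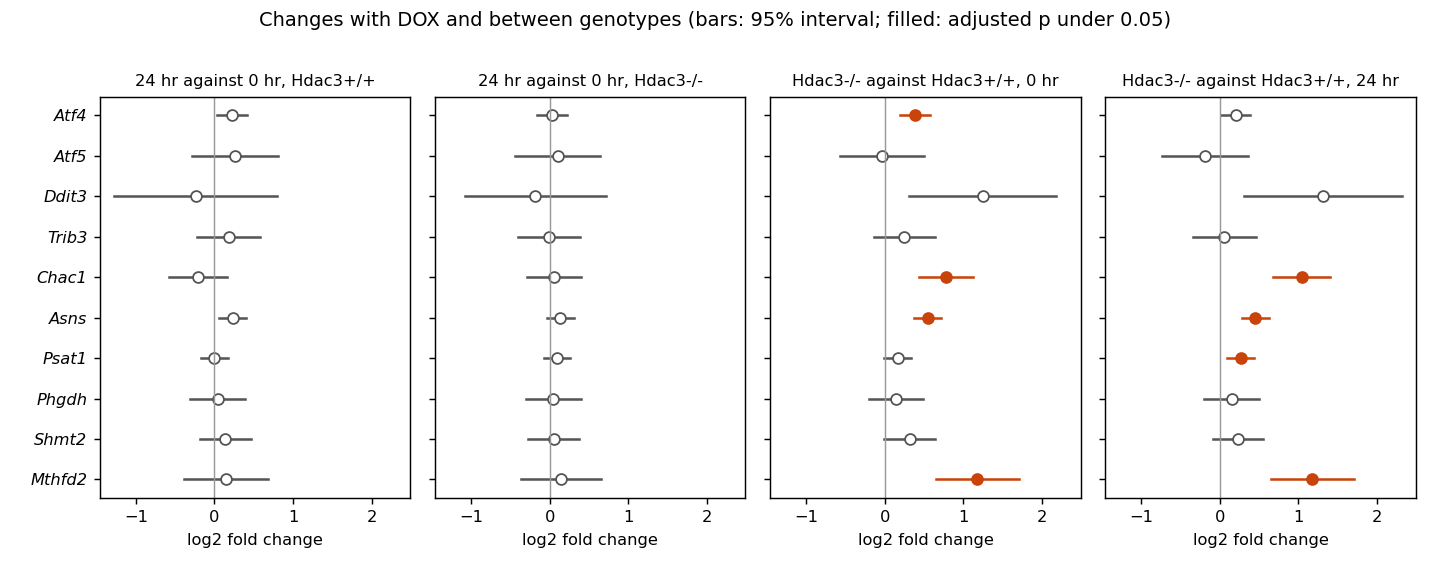
log2 fold changes of the 10 genes with DOX in each genotype (left panels) and between genotypes at each time (right panels), with bars for the 95% interval and filled points for an adjusted p under 0.05. No point is filled for DOX, and 4 are filled at each time for genotype, with Mthfd2 at 1.18 in both.

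Some of these calls were lost when a single library was left out. At 0 hr Asns kept its call without any 1 of the 8 samples. Atf4 lost it without Hdac3-/- replicate 1 at 0 hr (adjusted p = 0.076) or Hdac3+/+ replicate 2 at 0 hr (0.11), Chac1 without Hdac3-/- replicate 2 at 0 hr (0.054) or Hdac3+/+ replicate 2 at 0 hr (0.089), and Mthfd2 without Hdac3+/+ replicate 1 (0.085) or 2 (0.081) at 0 hr. At 24 hr Asns and Mthfd2 lost it without Hdac3+/+ replicate 1 at 24 hr (0.074 and 0.12) or replicate 2 (0.056 and 0.084), and Chac1 without replicate 2 (0.054). In each of these fits 1 group held a single sample, which was assumed to vary like the others. The fits named here that lost a call also called fewer of all tested genes than the fit of all 8 samples. Psat1 at 24 hr also lost its call without Hdac3-/- replicate 1 or 2 at 0 hr, in fits that called more genes. For Asns, Atf4, Chac1 and Mthfd2 a lost call therefore does not show that the library left out drove it.

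The allelic reads separated the Hdac3-/- replicates at Shmt2 and Mthfd2. The d-score is the share of allelic reads from the B6 allele, given here for genes with at least 10 such reads. For Shmt2 the Hdac3+/+ duplicates gave 0.493 and 0.467 before DOX and 0.488 and 0.493 after it. In Hdac3-/- replicate 1 it was 0.317 before and 0.324 after DOX, and in replicate 2 it was 0.512 and 0.524. For Mthfd2 it was 0.357 to 0.406 in the 4 Hdac3+/+ samples, 0.383 and 0.38 in Hdac3-/- replicate 2 and 0.515 and 0.507 in Hdac3-/- replicate 1. The shift was thus seen in replicate 1 at both times and not in replicate 2.

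The B6:Cast ratio was tested for 9 of the 10 genes, without Ddit3, which had 2 to 11 allelic reads per sample. None of the 9 was called for DOX in Hdac3+/+, for DOX in Hdac3-/- or for genotype at 0 hr, where 1.61%, 0.406% and 0.667% of 9595 genes were called. The adjusted p for genotype at 0 hr was 0.75 for Shmt2 and 0.67 for Mthfd2. Atf4, Asns and Psat1, with 476 to 9704 allelic reads per sample, had d-scores of 0.504 to 0.557, 0.422 to 0.455 and 0.469 to 0.493 over the 8 samples.

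**Figure D3:**
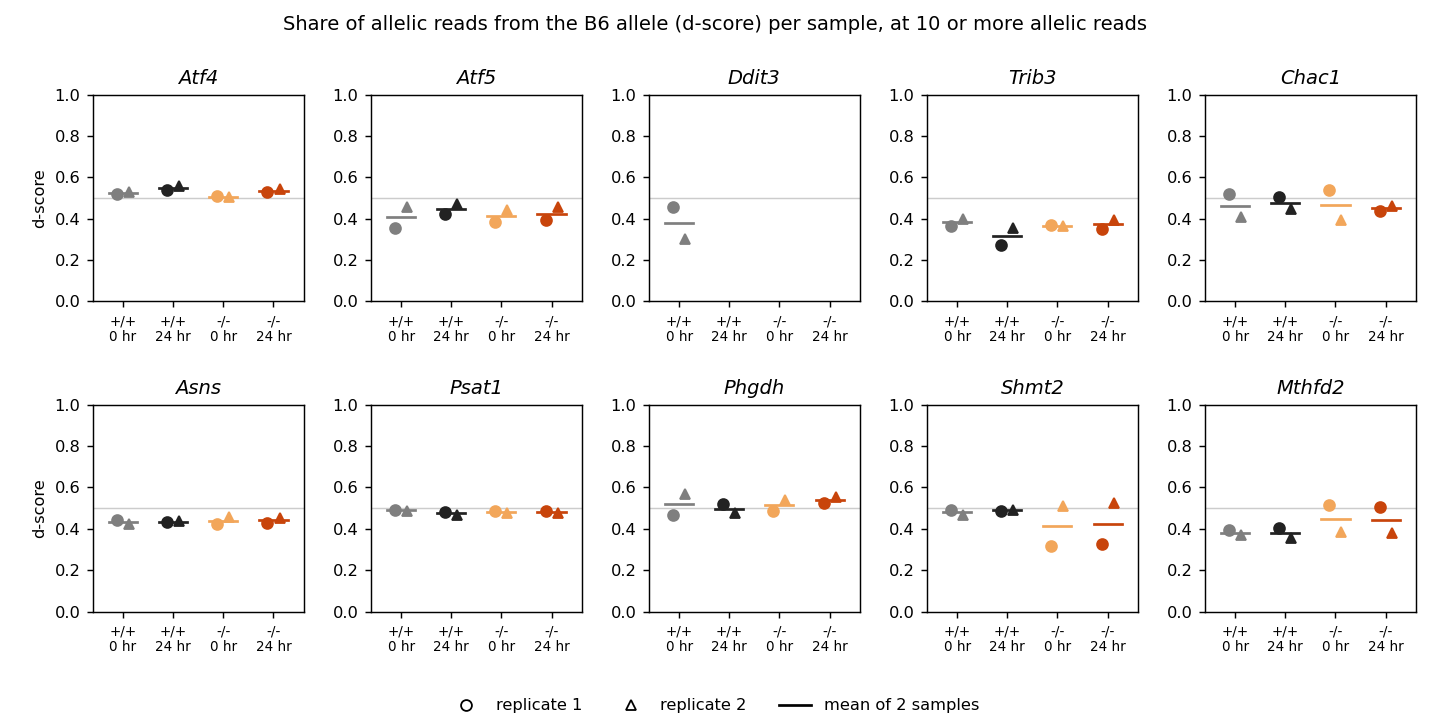
d-score (share of allelic reads from B6, axis from 0 to 1) of each gene by genotype and time, shown for samples with at least 10 allelic reads, with circles for replicate 1, triangles for replicate 2 and a line at the mean of 2 samples. Hdac3-/- replicate 1 lies apart for Shmt2 (0.317 and 0.324) and Mthfd2 (0.515 and 0.507), and Ddit3 has enough reads only in Hdac3+/+ at 0 hr.

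The genes around Shmt2 and Mthfd2 shared these shifts. Ddit3 (chromosome 10, 127290774 to 127296288) and Shmt2 (chromosome 10, 127517123 to 127522444) are neighbours, and Mthfd2 lies on chromosome 6 (83305691 to 83325908; mm10, GENCODE M21). Over 21 genes on chromosome 10 from Lrig3, 1.55 Mb before Shmt2, to Zbtb39, 0.222 Mb after it, the median d-score of Hdac3-/- replicate 1 was 0.331 at 0 hr and 0.357 at 24 hr, against 0.512 and 0.511 in replicate 2 and 0.488 to 0.536 in Hdac3+/+. In 21 of the 21 genes replicate 1 was below replicate 2. Over 19 genes on chromosome 6 from Gcfc2, 1.38 Mb from Mthfd2, to Tet3, the medians were 0.686 and 0.677 in replicate 1, 0.526 and 0.515 in replicate 2 and 0.506 to 0.536 in Hdac3+/+. The limits of both spans were set after the values were seen.

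Total expression moved with these spans. The median CPM of replicate 1 over replicate 2 in Hdac3-/- was 1.47 over the 21 genes on chromosome 10 and 1.42 over the 19 genes on chromosome 6, and each of these genes was higher in replicate 1. Over the other 47 and 49 genes within 10 Mb the ratios were 0.976 and 0.93. For Ddit3 itself the ratio was 1.65 at 0 hr and 2.44 at 24 hr. It was 1.30 and 1.27 for Shmt2, and 1.5 and 1.56 for Mthfd2. Between the Hdac3+/+ duplicates the ratio for Ddit3 was 1.51 at 0 hr and 1.087 at 24 hr. The Hdac3+/+ ratios were 1.009 and 1.079 for Shmt2, and 0.999 and 0.881 for Mthfd2. At 0 hr the Hdac3-/- ratio of Ddit3 was thus little above that of the Hdac3+/+ duplicates. Copy number was not measured, and its part in these levels was not tested. Around the other 7 genes, the d-score difference from Hdac3+/+ was taken for each of the 10 nearest informative genes. The median of these differences was -0.009 to 0.012 in replicate 1 and -0.047 to 0.030 in replicate 2.

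A further fit kept replicate 2, which did not show the allele shifts of the 2 spans, as the only Hdac3-/- sample at each time. Mthfd2 was still higher than in Hdac3+/+, by a log2 fold change of 0.86 at 0 hr and 0.82 at 24 hr. Atf5 went the other way at 24 hr, with a log2 fold change of -0.59. Chac1 was higher by 0.90 and 1.10 in the same fit (adjusted p = 0.0018 and 0.00085). Ddit3 was then higher by 0.83 at 0 hr (adjusted p = 0.037) and differed by 0.52 at 24 hr (adjusted p = 0.24). Shmt2 differed by 0.11 (adjusted p = 0.38) and 0.05 (adjusted p = 0.72). This fit was chosen after the values were seen and takes its spread from the Hdac3+/+ duplicates, and it called 25.3% and 21.2% of 13163 tested genes at 0 and 24 hr.

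**Figure D4:**
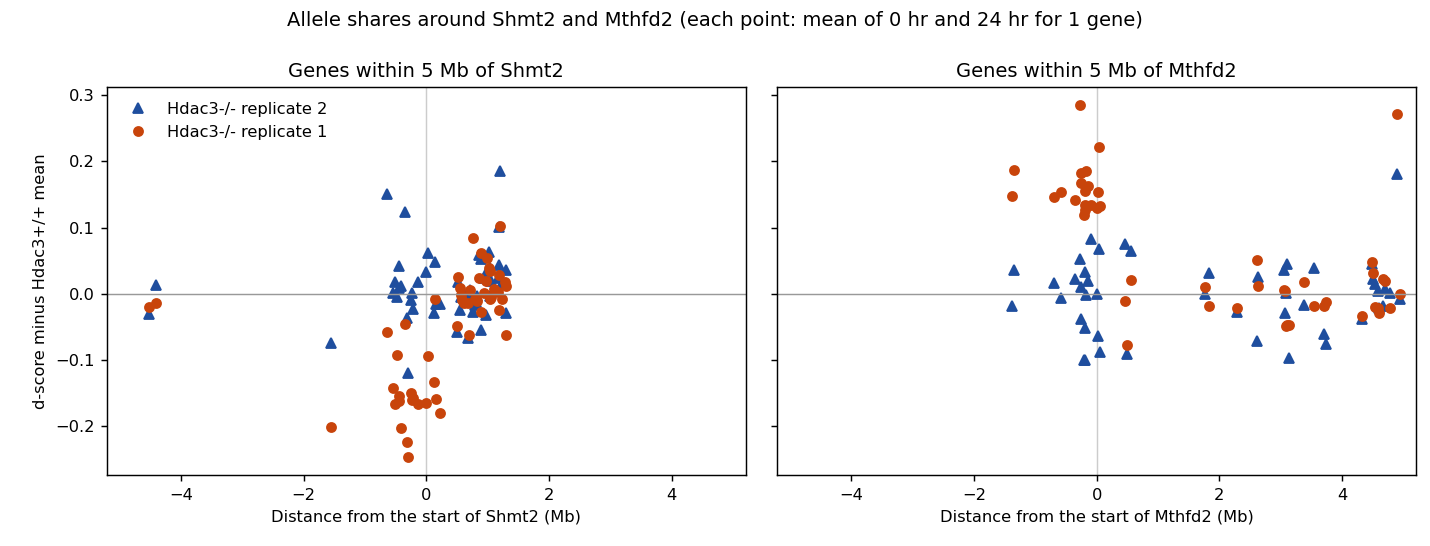
Difference of the d-score from the Hdac3+/+ mean for genes within 5 Mb of Shmt2 (left) and Mthfd2 (right), by distance in Mb, 1 point per gene, mean of both times, circles for Hdac3-/- replicate 1 and triangles for replicate 2. Replicate 1 drops around Shmt2, to a median d-score of 0.331 at 0 hr over 21 genes, and rises around Mthfd2, to 0.686 over 19 genes, while replicate 2 stays around 0.

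Other genes of the pathway were counted from lists. After DOX, none of 14 other transcription and feedback genes, 9 amino acid transporters, 12 amino acid and one-carbon enzymes, 13 cytosolic aminoacyl-tRNA synthetase list genes, 8 genes of the stress kinases and eIF2 control, 12 mitochondrial chaperones and proteases and 13 endoplasmic reticulum stress genes was called, in either genotype or in the mean of both. In the mean of both genotypes the median log2 fold change of these lists ran from -0.06 for the transcription and feedback genes to 0.14 for the enzymes. For the mitochondrial chaperones and proteases, which are raised by stress of that organelle, it was 0.08. Mitochondrially encoded genes were not analysed here.

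Between genotypes, part of the enzymes and tRNA synthetases were higher in Hdac3-/-. Of all tested genes, 7.2% were higher and 8.36% lower at 0 hr, and 6.57% and 7.31% at 24 hr. Of 12 enzymes, 4 were higher and 1 lower at 0 hr. Cth, the last step of cysteine synthesis, had a log2 fold change of 1.25, the alanine transaminase Gpt2 one of 0.87, the last enzyme of serine synthesis Psph one of 0.78, and the aspartate transaminase Got1 one of -0.38. At 24 hr 6 enzymes were higher and 1 lower, led by Cth with 1.04, Gpt2 with 1.03 and Pycr1 with 0.88, with Got1 at -0.49. Of 13 genes on the tRNA synthetase list, 8 were higher at 0 hr and 6 at 24 hr and none was lower, with Aars, Cars and Nars at log2 fold changes of 0.44, 0.43 and 0.41 at 0 hr. The median of the list was 0.35 at 0 hr and 0.31 at 24 hr.

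The remaining lists were mixed. Of 14 transcription and feedback genes 3 were higher and 1 lower at each time: the mTORC1 inhibitor Ddit4 had a log2 fold change of 1.16 at 0 hr and 1.56 at 24 hr, Sesn2 0.47 and 0.45, and Stc2 -0.85 and -0.82, while Eif4ebp1 was higher by 0.30 at 0 hr and Atf3 by 1.34 at 24 hr. Among 9 amino acid transporters the arginine transporter Slc7a3 was lower at 0 hr (-0.83) and Slc1a4 higher at 24 hr (0.59). Among 12 mitochondrial chaperones and proteases, Hspa9 was higher at both times (0.44 and 0.37) and Htra2, which lies in the chromosome 6 span, at 0 hr (0.98). None of the 8 genes of stress kinases and eIF2 control was called at either time. None of 13 endoplasmic reticulum stress genes was called at 0 hr, and 1, the chaperone Calr, was lower at 24 hr (-0.34).

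**Figure D5:**
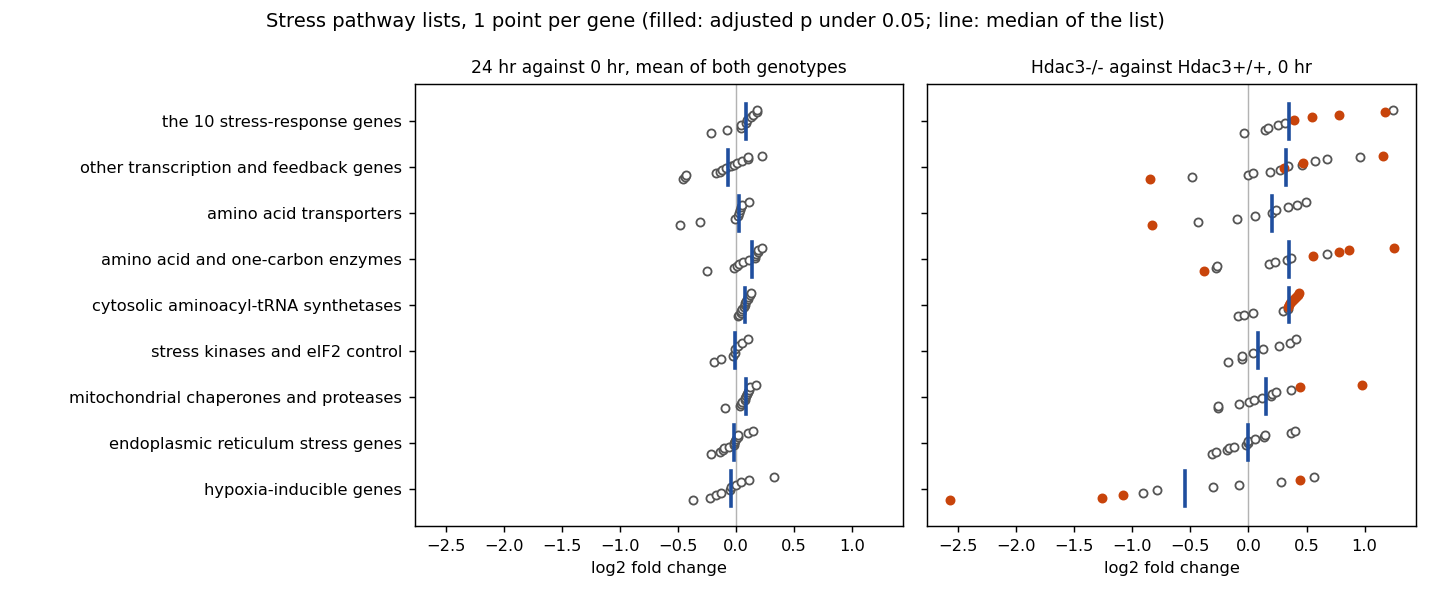
log2 fold changes of single genes in the stress pathway lists with DOX (left, mean of both genotypes) and between genotypes at 0 hr (right), filled where the adjusted p is under 0.05, with a line at the median of each list. No point is filled on the left. On the right 4 of the 10 genes, 4 higher and 1 lower enzyme and 8 of 13 tRNA synthetase list genes are filled.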

How the data were processed

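RNA-seq of 8 samples was analysed from 1 table per sample. Per the labels and the study's methods, ribosomal RNA was depleted in library preparation, and the authors removed rRNA reads, mapped with TopHat2 2.1.0 and the refFlat annotation to mm10 and counted exonic reads with strand using featureCounts 1.5.1. Counts of all, B6 and Cast reads were deposited without normalization, and the deposited d-score is a fraction, B6 over B6 plus Cast reads. Rn45s took 7.03% to 8.31% of the reads.

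Genes with CPM above 1 in at least 2 samples (13387) were tested with edgeR 4.0.16 (quasi-likelihood, TMM, R 4.3.3), 1 mean per genotype and time, 4 residual degrees of freedom and Benjamini-Hochberg adjustment over all tested genes at 0.05. The B6:Cast ratio was tested in a fit with an effect per sample, for genes with at least 10 allelic reads in all 8 samples. Alternatives used DESeq2 1.42.0 and limma 3.58.1. TPM and positions used GENCODE M21, in which 660 of 24542 symbols had no single match, and these lengths may differ from those the authors used. Scripts were tested on simulated data. Replicates differed beyond sampling noise, so none was counted as a duplicate.

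The genes and lists were chosen with earlier results of these data known. All 10 genes are named with every sample, and from other lists up to 3 called genes per direction by absolute log2 fold change. Deviations from group means correlated between same-numbered samples (r = 0.713 for Hdac3-/- at 0 and 24 hr, 0.352 for Hdac3+/+, 0.219 to 0.260 between genotypes). The pairing of Hdac3-/- samples rests on shared allele shifts, not on the labels. The tables hold no comparisons made by the authors.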

Additional observations from a re-analysis of the deposited data

How the results depend on the processing

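Of 1300 values of single genes under 22 alternatives, 1232 stayed on their side of the threshold, 40 gained a call, 28 lost one and 0 called values reversed, while 73 uncalled values changed sign. With a replicate block over all groups, 209, 180 and 13 genes were called for DOX in the mean of both genotypes, Hdac3+/+ and Hdac3-/-, and 3950 and 3483 between genotypes at 0 and 24 hr. With a replicate block within each genotype the counts were 1263, 1337, 224, 6393 and 5707, with 153 for the interaction, and 3, 2, 0, 8 and 8 of the 10 genes. With a replicate block in Hdac3-/- only, chosen after seeing the data like the fits with 1 clone, they were 405, 408, 39, 4796 and 4256, with 1, 1, 0, 6 and 7 of the 10. Blocked genotype fits leave the difference between clones out of the error. DESeq2 called 133, 118 and 16 genes for DOX and 1 for the interaction, and voom 12 in Hdac3+/+. With no filter on low counts the counts were 294, 275, 36, 6 (interaction), 3236 and 2939. A log2 fold change above 1 as well left 9 and 7 for DOX (both, Hdac3+/+) and 861 and 736 between genotypes, with 1 and 2 of the 10. With the samples of the 2 groups alone, DOX called 259 in Hdac3+/+ and 1 in Hdac3-/-, and without Rn45s and Xist 1 in Hdac3-/-. With only Hdac3-/- replicate 2, 164 (both), 266 (Hdac3+/+), 3325 and 2797 were called. With only replicate 1 the counts were 139, 262, 6 (Hdac3-/-) and 2866 at 24 hr, with 7 of the 10. Leaving out 1 sample gave 2 to 55 genes for DOX in both genotypes and in Hdac3+/+, 2 to 2 in Hdac3-/- and 0 to 0 for the interaction, and 656 to 2604 and 429 to 2039 between genotypes at 0 and 24 hr, with 1 to 5 and 0 to 5 of the 10. Where not named otherwise, the cause of these shifts was not tested. Ddit3, with 38 to 332 reads per sample, is the gene most limited by depth.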

Other observations

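Of 10 tested hypoxia-inducible genes, 1 was higher and 3 lower in Hdac3-/- at 0 hr, and 1 was higher and 2 lower at 24 hr (edgeR quasi-likelihood test, adjusted p under 0.05), beside 7.2% higher and 8.36% lower among all tested genes at 0 hr and 6.57% and 7.31% at 24 hr. The median log2 fold change of the list was -0.55 and -0.42. Ndrg1 was at 13.9 ± 4.2 CPM in Hdac3+/+ and 2.33 ± 0.0962 CPM in Hdac3-/- at 0 hr (SD, n = 2 each), which on the log2 scale is a difference of -2.58. Pfkfb3, which drives glycolysis, was lower by a log2 fold change of -1.08 at 0 hr and -0.90 at 24 hr, and the prolyl hydroxylase Egln3 by -1.26 at 0 hr. The glycolytic enzyme Pgk1, which is X-linked, was higher by 0.44 at 0 hr and 0.72 at 24 hr. The paper lists Pgk1 among genes whose silencing after Xist induction was affected by HDAC3 loss. The part of this in the 24 hr difference was not tested. After DOX none of the 10 was called.

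Atf5 varied between the Hdac3-/- replicates without a shift of its neighbours' allele shares. Replicate 1 was 1.42 times replicate 2 at 0 hr and 1.63 times at 24 hr, against a median of 1.00 and 1.01 over all tested genes. The d-scores of Atf5 in Hdac3-/- were 0.382 and 0.395 in replicate 1 and 0.444 and 0.455 in replicate 2. In Hdac3+/+ replicate 1 was also below replicate 2, with 0.354 and 0.425 against 0.458 and 0.469. These d-scores rest on 81 to 207 allelic reads per sample.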
